A study of Solanum lycopersicum with 84 samples.

Results

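Shoots were compared with roots of tomato (Solanum lycopersicum, cultivar M82) plants that were kept without nitrogen (N) throughout the sampled period. The comparison used the 3 shoot −N and the 3 root −N mRNA libraries, chosen by their labels, which are 6 of the 84 samples of the series, and 22092 of the 34075 genes in the count table had enough reads to be tested. In both groups the plants were 22 days old when they were moved from complete hydroponic medium to N-free medium in a greenhouse, stayed there for 4 days, and then received fresh N-free medium (−N), in which chloride salts took the place of nitrate, for 6 h before harvest. The shoot +N and root +N libraries, from plants given nitrate for the same 6 h after the same starvation, are used only in the last comparison. The 3 libraries of a group are biological replicates, each from a pool of plants and from a whole organ, so a level is an average over all cell types of that organ. Which leaves and stem parts went into a shoot sample, and whether a shoot and a root library came from the same plants, is not stated by the labels or methods.

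Shoots hold the chloroplasts of the plant, where light harvesting, carbon fixation and much of nitrite reduction take place. Roots take up nitrate, ammonium, iron, potassium and phosphate from the medium and load them into the xylem, the vessels that carry them to the shoot. When N is short, high-affinity transporters in roots scavenge what is left, and N already in the plant is moved between organs as nitrate and amino acids. The organ contrast therefore shows which arm of photosynthesis, uptake and N use each organ expressed while no N was supplied.

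Between 20250058 and 21901432 reads were counted per shoot −N library, against 17587542 to 20417331 per root −N library. A gene was called different at an adjusted p of 0.015 or less (edgeR's quasi-likelihood test, Benjamini-Hochberg adjustment over all genes tested) and a difference of at least 2-fold. By this rule 8331 genes (37.7% of those tested) differed, of which 4322 (19.6%) were higher in −N shoots and 4009 (18.1%) were higher in −N roots. The median log2 difference, shoot minus root, over all genes tested was −0.01. Levels are given as CPM, counts per 1000000 reads after scaling, in the order of replicates 1, 2 and 3. They are not corrected for gene length, so levels are compared between organs and never between genes.

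Large differences were common, and they were more often towards the root as the threshold rose. At 4-fold or more, 2548 genes were higher in −N shoots and 2518 in −N roots. At 32-fold or more, 837 were higher in −N shoots and 1154 in −N roots, and at 64-fold or more the counts were 634 and 894. Genes called higher in shoots took 30.5% to 31.4% of the reads of −N shoot libraries, against 5.72% to 5.91% of the reads of −N root libraries. Those called higher in roots took 4.05% to 4.25% of the reads in −N shoots, against 22.7% to 23.9% in −N roots. A further group was counted in one organ only, with at least 30 reads in 3 libraries of one organ and none in the other, and it held 272 genes read in −N shoots and 429 read in −N roots. Because tissue was measured in bulk, a cell type that makes up less of an organ and a gene that is less active in its cells cannot be told apart.

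**Figure D1:**
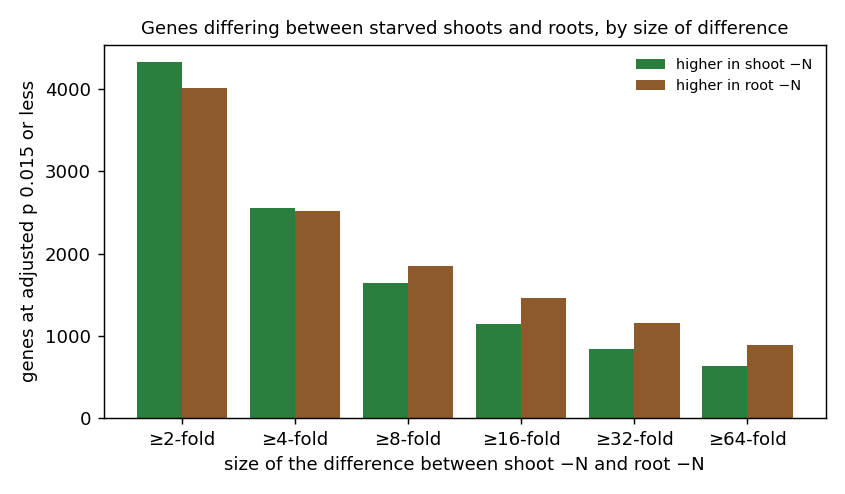
Number of genes called different between the organs (vertical axis) by the size of the difference (horizontal axis, each class includes all larger ones), with green bars for genes higher in shoot −N and brown bars for genes higher in root −N. The bars are close at 2-fold, with 4322 shoot and 4009 root genes, and the brown bar is the taller at 32-fold, with 837 shoot and 1154 root genes.

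The libraries were first checked against markers of both organs. All 10 leaf markers (antenna proteins, Rubisco, an oxygen-evolving protein, and genes of leaf blade and stomata) were called higher in shoots. Their summed level was 4074 to 4402 CPM in −N shoots, against 21.3 to 25.8 CPM in −N roots, which is 0.551% of the shoot level, and LHCB2 and a YABBY gene had no read in any −N root library. Of the 10 root markers, 8 were called higher in roots, and their summed level was 53.9 to 64.02 CPM in −N shoots, against 593 to 681 CPM in −N roots. IRT1, FER and WOX5 had no read in any −N shoot library. IRT1 and WOX5 were also low in −N roots, with 19, 29 and 19 reads for IRT1 and 6, 14 and 21 for WOX5. WOX5 had too few reads to be tested, so its absence from shoots says little. The shoot value, 9.21% of the root value, came mostly from RHS19, a root hair peroxidase at 31.1 to 34.9 CPM in −N shoots, and AGL12, a MADS-box gene at 22.5 to 28.6 CPM in −N shoots. AGL12 was at 36.9 to 37.1 CPM in −N roots and was not called. The study's methods give a lower minimum RNA integrity for shoot than for root samples, which in this design cannot be told apart from the organ.

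**Figure D2:**
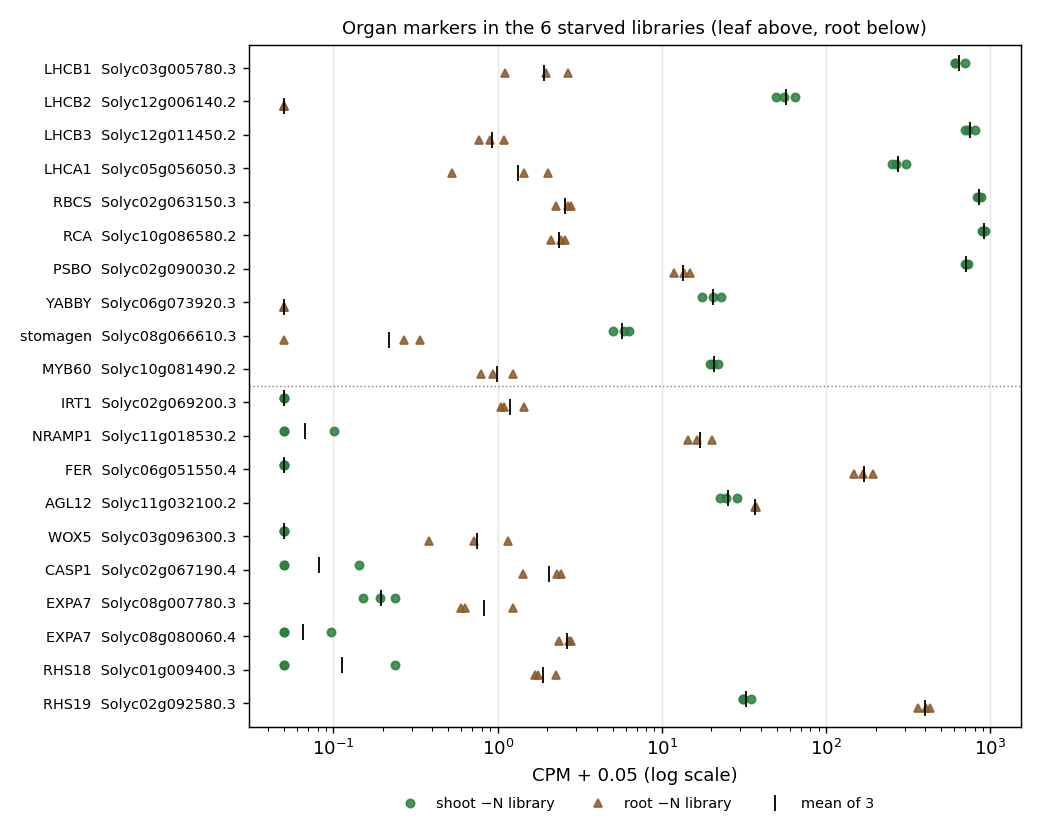
Level of each organ marker (rows, with gene identifiers) in the 6 starved libraries on a log axis of CPM plus 0.05, with green circles for shoot −N libraries, brown triangles for root −N libraries and a bar at the mean of 3. The 10 leaf markers above the dotted line lie to the right in shoots, and among the 10 root markers below it IRT1, FER and WOX5 sit at 0 in all 3 shoot libraries.

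The gene lists examined were drawn from genes described in the study's supplement, with earlier results of these data known. Counts of called members therefore describe the listed genes and are not evidence about a class of genes. Over all genes tested, 19.6% were higher in shoots and 18.1% higher in roots. Of the 18 lists, light harvesting was the only one with every tested member called in 1 direction. All 11 listed light harvesting and photosystem genes were called higher in −N shoots, with a median log2 difference of 8.39. LHCB1 (Solyc03g005770.3), an antenna protein of photosystem II, had 1370, 1152 and 1060 CPM in −N shoots, against 2.15, 0.383 and 0.739 CPM in −N roots (log2 difference 10.14 ± 0.22 SE, adjusted p = 2.7e-15). A second LHCB1 copy, Solyc03g005780.3, had 703, 607 and 606 CPM in −N shoots and 1.93, 2.63 and 1.06 CPM in −N roots (log2 8.39 ± 0.14 SE). The root libraries spread several-fold among themselves at these low levels, but no root value came near a shoot value. LHCB3 (Solyc12g011450.2), of the antenna trimers, had 809, 734 and 700 CPM in −N shoots, against 1.05, 0.717 and 0.844 CPM in −N roots (log2 9.75 ± 0.11 SE, adjusted p = 7.1e-18). LHCB2 (Solyc12g006140.2) had 64.7, 55.3 and 49.5 CPM in −N shoots and no read in −N roots, so it was at least 1092-fold higher in shoots when set against a floor of 3 reads over the 3 root libraries. Antenna genes include near-identical copies, and how multiply mapped reads were assigned is not given in the sources used here. The split of reads between copies is therefore uncertain.

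Subunits of the photosystems themselves were also read at low but steady levels in roots. PSBO (Solyc02g090030.2), the protein that stabilizes the oxygen-evolving cluster, had 734, 708 and 699 CPM in −N shoots and 11.7, 14.8 and 13.6 CPM in −N roots (log2 5.73 ± 0.08 SE, adjusted p = 3.1e-17). It had the second smallest difference of the 11, after PSBX (Solyc12g150101.1) at 132, 114 and 123 CPM in −N shoots and 2.87, 3.40 and 2.96 CPM in −N roots (log2 5.31 ± 0.10 SE). As a share of all reads, the 11 genes took 0.397% to 0.471% in −N shoots, against 0.00226% to 0.00260% in −N roots.

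Carbon fixation and photorespiration followed, with 14 of 16 genes (87.5%) called higher in shoots, against 19.6% of all genes tested. In this list 1 gene was higher in roots, and the median log2 difference was 6.55. RBCS (Solyc02g063150.3), the small subunit of Rubisco, had 848, 874 and 823 CPM in −N shoots, against 2.65, 2.73 and 2.22 CPM in −N roots, a 334-fold difference (log2 8.38 ± 0.08 SE, adjusted p = 3.6e-18). Rubisco activase (RCA, Solyc10g086580.2), which keeps Rubisco in its active form, had 891, 931 and 902 CPM in −N shoots and 2.54, 2.06 and 2.37 CPM in −N roots, a 392-fold difference. Both varied little among replicates of an organ. Photorespiration, which recovers carbon after the oxygenase reaction of Rubisco, held both large and small differences. Glycolate oxidase (Solyc07g056540.3), its peroxisomal enzyme, had 1666, 1663 and 1504 CPM in −N shoots, against 25.4, 23.8 and 26.5 CPM in −N roots, a 63.8-fold difference (log2 6.00 ± 0.07 SE). The P-protein of glycine decarboxylase (Solyc08g065220.3), the mitochondrial step, had 1278, 1225 and 1226 CPM in −N shoots and 336, 329 and 330 CPM in −N roots, a 3.74-fold difference (log2 1.90 ± 0.05 SE, adjusted p = 2.7e-14). Whether these gene-to-gene differences in fold are beyond error was not tested.

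Copies of a gene in the same carbon list could lie on different sides. A triose phosphate translocator (Solyc10g008980.4), which exports sugar phosphates from the chloroplast, had 860, 853 and 749 CPM in −N shoots and 51.8, 51.2 and 51.8 CPM in −N roots (log2 3.99 ± 0.07 SE). The copy Solyc01g010350.4 had a single read in the shoot libraries, against 17.9, 14.9 and 13.1 CPM in −N roots, a ratio of 950 in favor of roots with a 95% counting interval of 170 to 37575. Of 3 carbonic anhydrases, Solyc05g005490.4 had 92.9, 84.6 and 82.0 CPM in −N shoots and 61.9, 57.3 and 55.3 CPM in −N roots, a 1.49-fold difference that was too small to be called, although the organs did not overlap.

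Pigment synthesis genes were mixed, with 6 of 10 (60%) higher in shoots, 1 (10%) higher in roots and a median log2 difference of 3.25. Over all genes tested, 19.6% were higher in shoots and 18.1% higher in roots. The H subunit of magnesium chelatase (CHLH, Solyc04g015750.3), which commits porphyrin to chlorophyll, had 538, 448 and 476 CPM in −N shoots, against 4.79, 6.36 and 6.23 CPM in −N roots (log2 6.39 ± 0.10 SE, adjusted p = 1.6e-16). Phytoene synthases (PSY), which start the carotenoid pathway, went in opposite directions. Solyc02g081330.4 had 89.4, 88.5 and 90.1 CPM in −N shoots and 9.81, 10.5 and 10.8 CPM in −N roots (log2 3.11 ± 0.07 SE). Solyc01g005940.4 had only 2 reads in the shoot libraries, against 2.42, 2.39 and 1.90 CPM in −N roots, a ratio of 69.8 in favor of roots (95% counting interval 18.9 to 582). A pair of genes of the pathway, PSY Solyc03g031860.3 and zeta-carotene desaturase (ZDS, Solyc01g097810.3), were 1.93-fold and 1.85-fold higher in −N shoots and stayed under the threshold of 2-fold.

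Genes listed as leaf and shoot regulators were nearly all higher in shoots, 12 of 13 (92.3%), against 19.6% of all genes tested. Their median log2 difference was 4.43. The list holds CONSTANS-like zinc finger genes beside regulators of the leaf and its epidermis. Of the CONSTANS-like genes, Solyc07g045180.4 was at log2 1.32 and Solyc04g007210.3 at log2 7.63. A YABBY gene (Solyc06g073920.3), of a family that shapes the leaf blade, had 22.9, 20.5 and 17.5 CPM in −N shoots and no read in −N roots, at least a 392-fold difference. Stomagen (Solyc08g066610.3), a peptide that raises stomatal density in Arabidopsis, had 6.22, 5.84 and 4.98 CPM in −N shoots, against 0.220, 0.287 and 0 CPM in −N roots (log2 4.99 ± 0.41 SE, adjusted p = 2.6e-08). The exception was the homeodomain-leucine zipper gene HB15 (Solyc03g120910.4), which acts in vascular patterning in Arabidopsis. It had 84.3, 80.2 and 77.7 CPM in −N shoots and 82.2, 82.2 and 84.7 CPM in −N roots, with overlapping groups and an adjusted p of 0.54.

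Genes of the outer root tissues showed the reverse. Of 9 tested root hair genes, 8 (88.9%) were called higher in roots, against 18.1% of all genes tested. Their median log2 difference was −4.72, or −4.23 when genes without a shoot read are set at their bound. RHS19 (Solyc02g092580.3) had 31.3, 31.1 and 34.9 CPM in −N shoots, against 360, 403 and 429 CPM in −N roots (log2 −3.61 ± 0.08 SE, adjusted p = 2.5e-15). An expansin of root hair cells, EXPA7 (Solyc08g007780.3), had 0.101, 0.141 and 0.188 CPM in −N shoots and 0.551, 1.196 and 0.581 CPM in −N roots (log2 −2.39 ± 0.57 SE, adjusted p = 0.0014), and this call was lost without root replicate 2 (log2 −1.93, adjusted p = 0.017). Of 5 root regulators, only 2 had enough reads to be tested. AGL12 (Solyc11g032100.2), given above among the markers, was 1.47-fold higher in −N roots and was not called. BRN2 (Solyc06g063430.2), a root cap NAC factor in Arabidopsis, had 2 reads in the shoot libraries, against 8.05, 7.65 and 5.59 CPM in −N roots.

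The listed cell wall genes of the extensin and class III peroxidase families were mostly higher in roots. Extensins are structural glycoproteins of the wall, and peroxidases cross-link them and polymerize lignin. Of 17 tested extensins, 16 (94.1%) were called higher in roots and none in shoots, against 18.1% and 19.6% of all genes tested. Their median log2 difference was −6.15, or −5.31 with genes at 0 set at their bound. Solyc01g097690.2 had 0.101, 0.0941 and 0 CPM in −N shoots, against 15.5, 18.4 and 17.7 CPM in −N roots (log2 −7.93 ± 0.31 SE). Solyc01g097680.2 had no read in −N shoots and 8.76, 12.2 and 8.66 CPM in −N roots, and was at least 205-fold lower in shoots. Together the listed extensins took 0.00044% to 0.00063% of the reads in −N shoots, against 0.0112% to 0.0149% in −N roots. Extensin genes are repetitive and near-identical, so the split of reads among them is uncertain.

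Of 33 tested peroxidases, 27 (81.8%) were called higher in roots, 3 (9.09%) in shoots and 3 in neither. For all genes tested the shares were 18.1% in roots and 19.6% in shoots. The median log2 difference of the peroxidases was −7.50 (−7.29 with genes at 0 set at their bound). RHS19 and 2 RHS18 copies are counted both here and among the root hair genes. Solyc03g080150.3 had 0.658, 1.37 and 2.82 CPM in −N shoots and 262, 241 and 270 CPM in −N roots, a 157-fold difference (log2 −7.29 ± 0.18 SE, adjusted p = 1.6e-14). Solyc07g017880.4 had 0.911, 0.377 and 0.799 CPM in −N shoots and 133, 133 and 128 CPM in −N roots, a 188-fold difference. Reads of the 35 listed peroxidases took 0.110% to 0.114% in −N shoots, against 0.284% to 0.293% in −N roots, a much smaller gap than that of single members. Most of the shoot reads of these genes came from Solyc02g080530.3, with 829, 798 and 833 CPM in −N shoots and 1182, 1127 and 1103 CPM in −N roots, a 1.39-fold difference that was not called. The 3 peroxidases higher in shoots were Solyc01g006300.3, with 142, 157 and 160 CPM in −N shoots and 12.8, 10.95 and 9.50 CPM in −N roots (log2 3.79 ± 0.09 SE), its neighbor by number Solyc01g006290.4 (log2 3.96 ± 0.13 SE), and Solyc12g096530.1 (log2 6.42 ± 0.36 SE).

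The Casparian strip membrane protein family, named for proteins that organize the diffusion barrier of the root endodermis, had 7 of 9 tested members higher in roots and 1 higher in shoots (median log2 −4.38). Solyc01g067300.3 had 2.83, 1.55 and 2.12 CPM in −N shoots, against 130, 153 and 150 CPM in −N roots (log2 −6.06 ± 0.13 SE, adjusted p = 2.7e-15). The opposite member, Solyc09g074550.3, had 24.1, 18.7 and 19.6 CPM in −N shoots and 0.551, 0.383 and 0.422 CPM in −N roots (log2 5.52 ± 0.21 SE). Genes of the surface barrier of shoots, cuticular wax and cutin, were split, with 5 of 11 (45.5%) higher in shoots and 4 (36.4%) higher in roots. For all genes tested the shares were 19.6% and 18.1%. ABCG11, a transporter that exports cuticle lipids in Arabidopsis, had copies on both sides. Solyc03g019760.4 had 83.4, 87.5 and 76.9 CPM in −N shoots and 6.83, 7.46 and 6.07 CPM in −N roots (log2 3.60 ± 0.09 SE). Solyc05g051530.4 had 7.03, 5.93 and 8.41 CPM in −N shoots and 58.2, 71.2 and 72.5 CPM in −N roots (log2 −3.24 ± 0.12 SE).

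**Figure D3:**
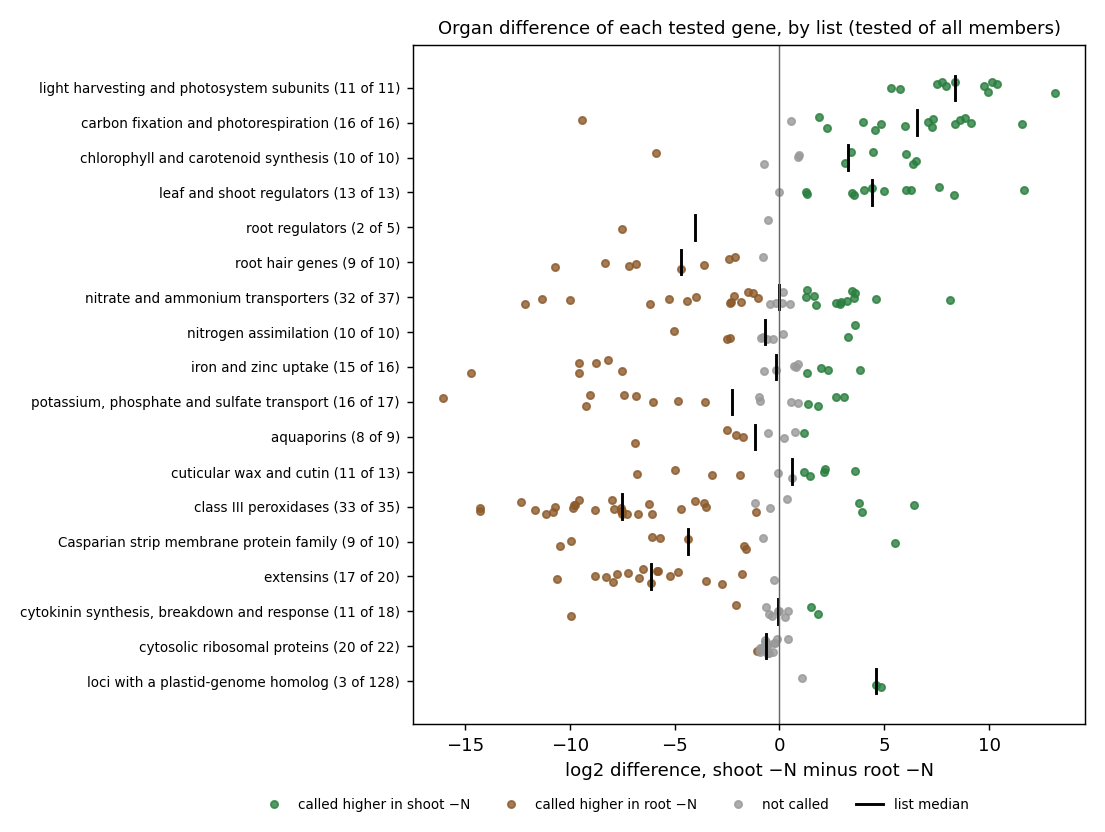
Log2 difference, shoot −N minus root −N, of each tested gene (points) in 18 gene lists (rows), with green for genes called higher in shoot −N, brown for higher in root −N, gray for not called, and a bar at the list median. The medians reach 8.39 for light harvesting and −7.50 for class III peroxidases, and are −0.02 for N transporters, whose points lie far to both sides; positions of genes with no read in one organ depend on the count added by the fit.

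Nitrate and ammonium transporters had no common direction. Of 32 tested, 13 (40.6%) were called higher in shoots, 14 (43.8%) higher in roots and 5 in neither, and the median log2 difference was −0.02. Across all genes tested, 19.6% were higher in shoots and 18.1% higher in roots. Transcripts of some high-affinity nitrate transporter genes were read mainly in roots. NRT2 genes encode the high-affinity nitrate carriers of the root surface. NRT2 Solyc11g069735.1 had 3 reads over the shoot libraries, against 130, 145 and 149 CPM in −N roots, a ratio of 2944 in favor of roots (95% counting interval 1007 to 14278). NRT2 Solyc06g074990.3 also had 3 reads in shoots, against 46.02, 71.9 and 50.9 CPM in −N roots (ratio 1183, interval 404 to 5737). Another NRT2 gene that the study names, Solyc11g069760.1, had 1 read in the shoot libraries and no read in −N roots, too few to be tested. NRT3 proteins are the partners that NRT2 carriers need at the membrane. NRT3 Solyc03g112100.3 had 10.98, 9.51 and 11.7 CPM in −N shoots and 396, 457 and 377 CPM in −N roots, a 38.2-fold difference (log2 −5.26 ± 0.09 SE, adjusted p = 4.7e-16). The gene numbered next to it, NRT3 Solyc03g112090.3, went the other way at a low level, with 3.69, 3.86 and 3.90 CPM in −N shoots and 0.441, 0.287 and 0.317 CPM in −N roots (log2 3.44 ± 0.31 SE).

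The NRT1/PTR family (NPF), which carries nitrate and other small molecules, was divided between the organs. NPF6.3 (Solyc06g060620.4), the dual-affinity transporter and nitrate sensor of Arabidopsis, had 140, 136 and 125 CPM in −N shoots, against 22.1, 19.3 and 21.4 CPM in −N roots (log2 2.68 ± 0.07 SE, adjusted p = 4.4e-14). NIT1 (Solyc08g078950.3), listed with the same Arabidopsis homolog, had 180, 188 and 184 CPM in −N shoots and 550, 489 and 538 CPM in −N roots (log2 −1.51 ± 0.06 SE). Neither pair of groups overlapped. NPF7.3 of Arabidopsis loads nitrate into the root xylem. Its homolog Solyc08g007060.4 had 25.5, 26.5 and 28.8 CPM in −N shoots and 85.97, 97.3 and 102 CPM in −N roots (log2 −1.82 ± 0.08 SE). A second homolog, Solyc08g077170.3, had 4.40, 3.95 and 3.20 CPM in −N shoots and 1.54, 1.196 and 0.897 CPM in −N roots (log2 1.67 ± 0.27 SE).

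Genes described as NPF1.2, a transporter that moves nitrate into young leaves of Arabidopsis, were higher in shoots in 4 of 5 tested cases. Solyc05g005950.3 had 150, 141 and 148 CPM in −N shoots and 19.9, 23.1 and 16.9 CPM in −N roots (log2 2.87 ± 0.09 SE, adjusted p = 1.8e-13). Solyc05g005960.3 had 62.3, 56.8 and 59.2 CPM in −N shoots and 4.85, 5.98 and 4.17 CPM in −N roots (log2 3.56 ± 0.11 SE). Genes described as NPF2.7, an exporter of nitrate from roots in Arabidopsis, lay on both sides, and 3 of them were singled out after their values were seen. Solyc06g075460.4 had 2.13, 1.69 and 1.41 CPM in −N shoots and no read in −N roots, at least 33.7-fold higher in shoots. Solyc11g072560.3 had no read in −N shoots and 31.2, 28.2 and 25.3 CPM in −N roots, at least 586-fold lower in shoots. Solyc11g072570.2 had 0.557, 0.330 and 0.564 CPM in −N shoots and 34.6, 35.2 and 37.5 CPM in −N roots (log2 −6.20 ± 0.16 SE).

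The 3 ammonium transporters that could be tested were all called higher in roots, 1 of them narrowly. AMT1 (Solyc09g090730.2) had 127, 139 and 146 CPM in −N shoots, against 278, 272 and 294 CPM in −N roots (log2 −1.03 ± 0.06 SE, adjusted p = 4.3e-10). The groups did not overlap, but the difference dropped under 2-fold without shoot replicate 1 (log2 −0.98) or without root replicate 3 (log2 −0.9992). Solyc04g050440.3 had 7.54, 5.79 and 5.78 CPM in −N shoots and 106, 95.3 and 105 CPM in −N roots (log2 −4.01 ± 0.10 SE).

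**Figure D4:**
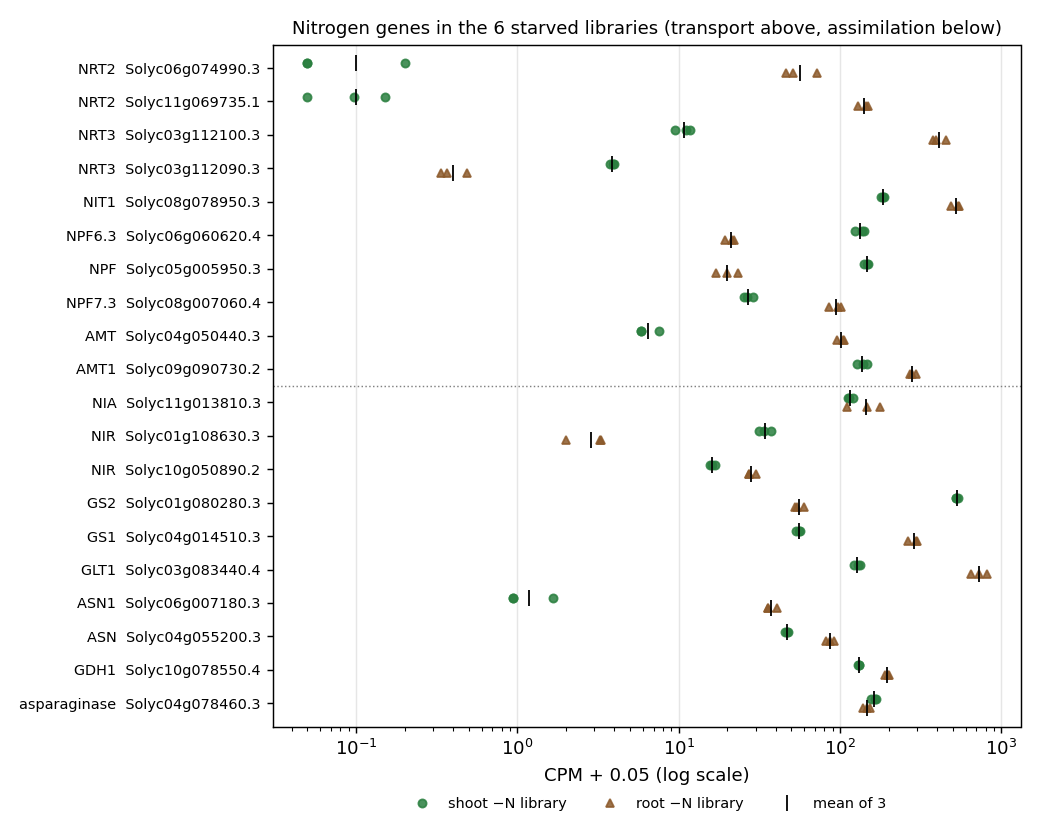
Level of 10 nitrate and ammonium transporter genes (above the dotted line) and 10 N assimilation genes (below it) in the 6 starved libraries, on a log axis of CPM plus 0.05, with green circles for shoot −N libraries, brown triangles for root −N libraries and a bar at the mean of 3. Transporters lie on both sides, from NRT2 Solyc11g069735.1 with 3 shoot reads in all to NPF6.3 at 125 to 140 CPM in shoots and 19.3 to 22.1 CPM in roots, and the points of nitrate reductase (NIA) overlap.

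N assimilation had members called in each direction. Of 10 genes, all tested, 2 (20%) were called higher in shoots and 3 (30%) higher in roots, against 19.6% and 18.1% of all genes tested, and the median log2 difference was −0.70. Nitrate reductase (NIA, Solyc11g013810.3), the first step, had 113, 114 and 120 CPM in −N shoots and 111, 146 and 176 CPM in −N roots (log2 −0.33 ± 0.11 SE, adjusted p = 0.018). The groups overlapped through root replicate 1. Nitrite reductase, the plastid enzyme of the next step, had a copy on each side. NIR Solyc01g108630.3 had 31.6, 33.7 and 37.4 CPM in −N shoots and 3.25, 3.20 and 1.95 CPM in −N roots, a 12.2-fold difference (log2 3.60 ± 0.15 SE, adjusted p = 6.8e-12). NIR Solyc10g050890.2 had 15.6, 15.96 and 16.7 CPM in −N shoots and 27.3, 29.99 and 27.3 CPM in −N roots (log2 −0.81 ± 0.09 SE), which was under the fold threshold.

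Ammonium is fixed by glutamine synthetase in plastids (GS2) or in the cytosol (GS1), and glutamate synthase then passes the amide group on. GS2 (Solyc01g080280.3) had 526, 525 and 540 CPM in −N shoots, against 53.8, 60.2 and 52.4 CPM in −N roots (log2 3.26 ± 0.06 SE, adjusted p = 9.8e-16). GS1 (Solyc04g014510.3) had 55.9, 56.4 and 53.7 CPM in −N shoots and 300, 262 and 297 CPM in −N roots (log2 −2.37 ± 0.06 SE, adjusted p = 3.7e-14). The plastid form was thus 9.56-fold higher in shoots and the cytosolic form 5.18-fold lower. Glutamate synthase (GLT1, Solyc03g083440.4) had 122, 129 and 133 CPM in −N shoots and 646, 728 and 810 CPM in −N roots (log2 −2.51 ± 0.08 SE). Asparagine, which carries much N per carbon, is made by asparagine synthetase. ASN1 (Solyc06g007180.3) had 1.62, 0.894 and 0.893 CPM in −N shoots and 35.7, 35.6 and 40.6 CPM in −N roots, a 33.0-fold difference (log2 −5.04 ± 0.16 SE). Another asparagine synthetase, Solyc04g055200.3, had 46.96, 47.7 and 45.5 CPM in −N shoots and 87.2, 91.2 and 81.9 CPM in −N roots, 1.86-fold and not called. Glutamate dehydrogenase (GDH1, Solyc10g078550.4) at log2 −0.59 and an asparaginase (Solyc04g078460.3) at log2 0.15 were not called either.

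Mineral uptake genes included several that were read in roots alone. FER (Solyc06g051550.4), the bHLH factor that switches on iron uptake in tomato roots, had no read in −N shoots and 167, 147 and 192 CPM in −N roots, at least 3507-fold lower in shoots. The iron transporter IRT1 (Solyc02g069200.3) had no read in −N shoots and 1.05, 1.39 and 1.00 CPM in −N roots. NRAMP1 (Solyc11g018530.2), a metal transporter, had 1 read in the shoot libraries, against 20.01, 16.4 and 14.4 CPM in −N roots (ratio 1051, 95% counting interval 188 to 41562). Iron genes were not all root genes. Of 15 tested iron and zinc genes, 4 (26.7%) were higher in shoots and 6 (40%) higher in roots. Over all genes tested these shares were 19.6% and 18.1%. A ferric-chelate reductase (FRO, Solyc01g094910.3) had 66.5, 57.5 and 51.0 CPM in −N shoots and 4.24, 4.93 and 2.80 CPM in −N roots (log2 3.86 ± 0.15 SE). Chloronerva (Solyc01g100490.4), the nicotianamine synthase that makes a metal chelator, had 13.8, 12.2 and 9.68 CPM in −N shoots and 5.18, 5.12 and 3.85 CPM in −N roots (log2 1.33 ± 0.17 SE). Zinc transporters of the ZIP family likewise had Solyc07g043230.3 higher in shoots (log2 2.32 ± 0.09 SE) and Solyc07g043200.2 read only in roots, at 2.42, 2.82 and 2.903 CPM.

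Potassium, phosphate and sulfate transport had 8 of 16 tested genes (50%) higher in roots and 4 (25%) higher in shoots (median log2 −2.26). Among all genes tested, 18.1% were higher in roots and 19.6% higher in shoots. HAK5 (Solyc12g005670.2), the high-affinity potassium carrier of roots, had no read in −N shoots and 435, 374 and 456 CPM in −N roots, at least 8751-fold lower in shoots. A KC1 homolog (Solyc01g010080.3), a channel subunit that tunes potassium uptake in Arabidopsis, had 0.557, 0.800 and 0.658 CPM in −N shoots and 118, 106 and 126 CPM in −N roots (log2 −7.43 ± 0.13 SE). The inward channel LKT1 (Solyc12g006850.2) had 31.2, 29.1 and 30.4 CPM in −N shoots and 60.0, 59.7 and 60.4 CPM in −N roots, 1.99-fold and so just under the threshold, and it was called under DESeq2 and under scaling to total counts (log2 −1.003 and −1.06). PHO1 homologs differed in direction. PHO1 (Solyc09g090360.3), which loads phosphate into the xylem in Arabidopsis, had 28.2, 26.5 and 22.2 CPM in −N shoots and 295, 289 and 311 CPM in −N roots (log2 −3.54 ± 0.08 SE). The homolog Solyc05g010060.4 had 6.02, 6.07 and 7.004 CPM in −N shoots and 1.49, 0.430 and 1.11 CPM in −N roots (log2 2.68). HKT1 (Solyc07g014680.4), which withdraws sodium from the xylem, had 9.11, 10.3 and 9.31 CPM in −N shoots and 314, 282 and 230 CPM in −N roots (log2 −4.85 ± 0.11 SE). All 3 sulfate transporters tested were higher in shoots in fold, from 1.82 to 3.62, and 2 of them were called.

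Aquaporins, the water channels, showed 4 of 8 (50%) higher in roots and 1 (12.5%) higher in shoots, against 18.1% and 19.6% of all genes tested. The plasma membrane channel PIP2.4 (Solyc06g011350.3) had 12.1, 15.3 and 13.7 CPM in −N shoots and 83.7, 78.5 and 69.6 CPM in −N roots (log2 −2.49 ± 0.09 SE). NIP5.1 (Solyc08g013730.3), which imports boric acid in Arabidopsis, had 164, 155 and 176 CPM in −N shoots and 721, 659 and 681 CPM in −N roots (log2 −2.06 ± 0.06 SE). The vacuolar channel TIP1.1 (Solyc06g074820.3) was the shoot gene, with 901, 1009 and 978 CPM in −N shoots and 449, 445 and 378 CPM in −N roots (log2 1.18 ± 0.07 SE).

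Cytokinins signal N status from root to shoot. Of 18 genes of their synthesis, breakdown and response, 11 could be tested, 2 were higher in shoots and 2 higher in roots. These shares, 18.2% each, are near those over all genes tested (19.6% and 18.1%). Cytokinin oxidases (CKX), which break the hormone down, differed in direction. CKX Solyc01g088160.4 had 7.29, 9.13 and 10.2 CPM in −N shoots and 2.09, 2.15 and 3.27 CPM in −N roots (log2 1.82 ± 0.21 SE). CKX Solyc08g061920.3 had no read in −N shoots and 4.35, 8.13 and 5.65 CPM in −N roots. Of 5 isopentenyltransferases (IPT), which start cytokinin synthesis, 4 had no read in any of the 6 libraries. Solyc09g064910.1 was at 0.424 to 0.658 CPM in −N shoots and 0.383 to 1.102 CPM in −N roots, with overlapping groups.

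Cytosolic ribosomal proteins differed little in size, and all but 1 of those tested had a log2 difference below 0. Of 20 tested, 1 was called (higher in roots), none was called higher in shoots, and the median log2 difference was −0.63. Across all genes tested, 18.1% were higher in roots and 19.6% higher in shoots. Solyc01g099900.4 had 333, 340 and 359 CPM in −N shoots and 484, 535 and 511 CPM in −N roots (log2 −0.57 ± 0.05 SE, adjusted p = 1.8e-07). Solyc06g007670.4 had 182, 208 and 206 CPM in −N shoots and 390, 394 and 357 CPM in −N roots (log2 −0.94 ± 0.06 SE) and was called only when libraries were scaled to total counts. The groups did not overlap for either gene. Of 128 genes described by a homolog in the plastid genome, 118 had no read and 3 could be tested, in libraries that were made from poly(A) RNA. One described as the large subunit of Rubisco (Solyc00g500063.1) had 22.3, 19.8 and 29.2 CPM in −N shoots and 0.937, 0.957 and 1.00 CPM in −N roots (log2 4.61 ± 0.20 SE).

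Among the described genes that differed 32-fold or more, those with the most reads in −N roots were not transporters. Sucrose synthase (Solyc07g042550.3), which splits sucrose for use in sink tissue, had 56.6, 61.8 and 63.0 CPM in −N shoots and 2522, 2673 and 2944 CPM in −N roots (log2 −5.49 ± 0.08 SE, adjusted p = 4.1e-17). Pyruvate decarboxylase (Solyc10g076510.2), the entry to ethanol fermentation, had 33.6, 30.6 and 38.4 CPM in −N shoots and 1393, 1691 and 2149 CPM in −N roots (log2 −5.67 ± 0.14 SE). An ACC oxidase (Solyc07g026650.3), the last enzyme of ethylene synthesis, had 0.101, 0.188 and 0.329 CPM in −N shoots and 501, 678 and 758 CPM in −N roots (log2 −11.55 ± 0.24 SE). A 12-oxophytodienoate reductase (Solyc01g103390.3, 588-fold), a metallothionein-like gene (Solyc06g005465.1, 294-fold), a dioxygenase (Solyc01g108860.3, log2 −10.57), a second pyruvate decarboxylase (Solyc02g077240.4, 62.3-fold) and a pathogenesis-related gene (Solyc08g080670.1, 246-fold) completed the 8 on the root side. On the shoot side, 7 of the 8 were photosynthetic genes, and the other was a germin-like protein (Solyc07g041720.1) with 2295, 2174 and 2044 CPM in −N shoots and no read in −N roots, at least 41978-fold higher in shoots. Among genes without a description at 32-fold or more, those with the highest mean count on each side were Solyc03g005760.1, with 4254, 4278 and 4268 CPM in −N shoots and 34.3, 36.1 and 29.2 CPM in −N roots, and Solyc06g059740.4, with 136, 156 and 170 CPM in −N shoots and 6154, 6672 and 7615 CPM in −N roots.

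To ask which organ differences differed between starved and nitrate-supplied plants, the difference in −N plants was set against that in +N plants, whose 6 libraries share no sample with the −N libraries. The organs differed at 9753 genes (45% of 21663 tested) in +N plants. Of 7947 genes called in −N and tested in both, 6856 (86.3%) were called in the same direction in +N plants and 45 in the opposite direction. The difference between the differences was called for 3200 genes (14.2% of 22483 tested), of which 1574 (7%) were above 0 and 1626 (7.23%) below 0. Such a gene may have moved in either organ. The gene lists were drawn from genes described in the study's supplement, which favors N-responsive genes. Counts of called differences within a list, given below, are therefore a description and not evidence about a class of genes.

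Light harvesting genes had a median log2 difference of 8.39 in −N plants and 8.34 in +N plants, and 4 of 11 genes were called different between them. For ribosomal proteins the median was −0.63 in −N plants and 0.61 in +N plants, and for 13 of 20 the organ difference was called lower in −N than in +N plants. Solyc06g073310.3 was at log2 −0.63 in −N plants and 0.67 in +N plants (difference −1.29, adjusted p = 6.2e-13), with a mean of 696 CPM in +N shoots and 436 CPM in +N roots.

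N assimilation genes had 6 of 10 differences called. For NIR Solyc10g050890.2 the organ difference was log2 −0.81 in −N plants and −3.74 in +N plants (adjusted p of the difference 5.6e-16), with means of 16.1 and 28.2 CPM in −N shoots and roots and of 109 and 1455 CPM in +N shoots and roots. GS1 (Solyc04g014510.3) was at log2 −2.37 in −N plants and −4.16 in +N plants. The asparagine synthetase Solyc04g055200.3 was at log2 −0.89 in −N plants and 0.98 in +N plants, with a mean of 155 CPM in +N shoots and 78.5 CPM in +N roots. For GS2 (3.26 and 3.02) and GLT1 (−2.51 and −2.52) the difference was not called. AMT1 (Solyc09g090730.2) was at log2 −1.03 in −N plants and −2.53 in +N plants, and its means were 13.4 CPM in +N shoots and 77.9 CPM in +N roots. In cuticle genes 8 differences were called, 7 of them lower in −N plants, and the median was 0.58 in −N plants and 2.05 in +N plants.

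**Figure D5:**
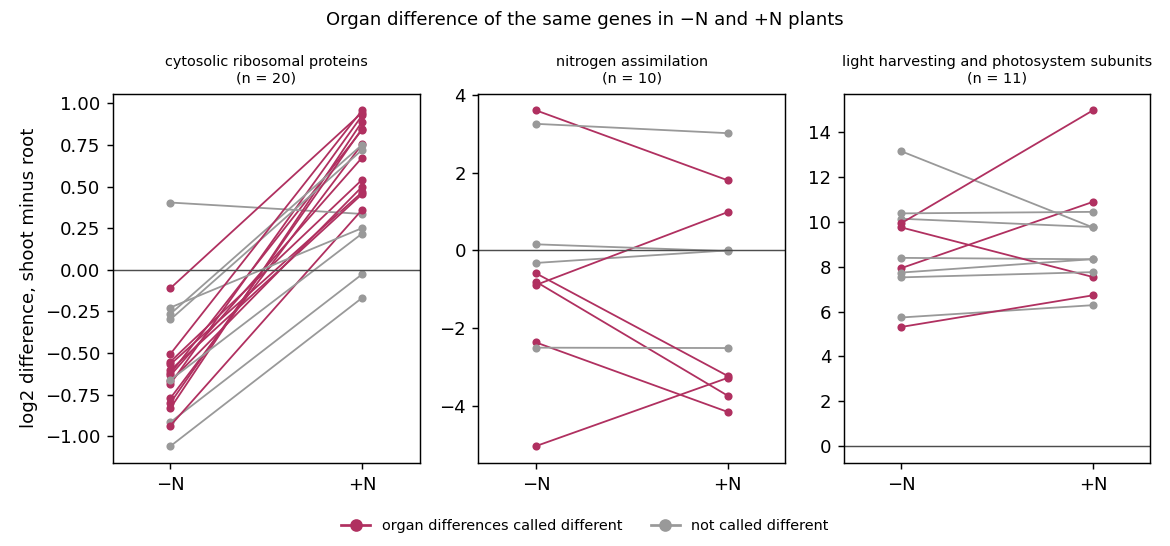
Log2 organ difference (vertical axis, shoot minus root) of the same genes in −N and +N plants, joined by lines, for 20 cytosolic ribosomal proteins, 10 N assimilation genes and 11 light harvesting genes, with red lines where the differences were called different and gray lines where they were not. The ribosomal proteins have a median of −0.63 in −N plants and 0.61 in +N plants, and light harvesting genes of 8.39 and 8.34; points of genes without a read in one organ depend on the count added by the fit.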

How the data were processed

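Tomato mRNA was measured by poly(A) RNA sequencing in shoots and roots of starved (−N) plants, with libraries of nitrate-supplied (+N) plants used for the last comparison. The authors deposited 1 table of read counts per gene, not normalized, with 12 columns. Per the study's methods, RNA was treated with DNase and sequenced paired-end, and reads were trimmed with Cutadapt, aligned with TopHat2 to the tomato genome and counted with htseq-count. Tool versions, the strand setting and the handling of multiply mapped reads: not given in the sources used here. No column of the authors' own comparisons was used.

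The 6 −N columns were taken through their labels and scaled together by TMM (edgeR 4.0.16, R 4.3.3). Genes passed filterByExpr (minimum count 10, minimum total 15) and were tested with glmQLFit and glmQLFTest, shoot minus root. A call needed an adjusted p of 0.015 (Benjamini-Hochberg over all genes tested) and 2-fold. The 6 +N columns were fitted in the same way, and the difference between the organ differences was tested as an interaction in a fit of all 12 libraries, with a difference called at the same thresholds. A standard error (SE) is the log2 difference divided by the root of the F statistic. A CPM is the count divided by the scaled library size, per 1000000 reads. Total counts per library were 17587542 to 21901432, so 3 reads over 3 libraries correspond to 0.0482 CPM in shoots and 0.0517 CPM in roots. Genes with no read in an organ have a bound against that floor, and genes with 1 to 3 reads have a ratio with an exact 95% interval, which covers counting error only. The biological coefficient of variation, from a separate fit of each organ, was 7.76% in shoots and 7.08% in roots. The p-values come from the joint fit and set the organ difference against the spread between pools of plants within 1 experiment.

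The members and gene lists were chosen with earlier results of these data known. Gene descriptions came from lists in the study's supplement (5108 genes), which favor N-responsive root genes and genes with histone marks. None of the gene IDs matched the reference gene table (0 of 34075), so no sequence or position is given. Genes named are the organ markers, the 6 members of each list with the highest mean count, members called against their list's majority, members the study names, and, at 32-fold or more, the 8 described and 2 undescribed genes per organ with the highest mean count. Chosen after their values were seen, outside that rule, were PSBX, PSY Solyc03g031860.3, the carbonic anhydrase Solyc05g005490.4, AMT Solyc04g050440.3, ASN1, the NPF2.7 genes given, CKX Solyc08g061920.3, IPT Solyc09g064910.1 and the genes under other observations. Scripts were tested on simulated counts. Alternatives were DESeq2 1.42.0, DESeq2 size factors, total-count scaling, other filters and thresholds, a replicate block, 1 fit of all 12 libraries, and leaving out each replicate.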

Additional observations from a re-analysis of the deposited data

Results flagged for a closer look

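For 13 of the genes that the naming rule took from the fixed lists and the 32-fold genes, the organ difference in −N plants differed from that in +N plants by at least 4-fold, by the interaction test of edgeR. Values below are the log2 difference between the organ differences, −N minus +N, with mean CPM.

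Among genes of N transport and use, the NPF7.3 homolog Solyc08g077170.3 had −5.35, with 3.06 CPM in +N shoots and 0.0175 CPM in +N roots. That root level is under 3 reads over the libraries, so the fitted value depends on the count added by the fit. NIT2 (Solyc08g007430.2), too low to be tested in −N plants alone, had 3.48, with 1.51 CPM in +N shoots and 9.19 CPM in +N roots. NIR Solyc10g050890.2 had 2.95. NRT3 Solyc03g112090.3 had 2.73, with 0.315 CPM in +N shoots and 0.191 CPM in +N roots. GDH1 (Solyc10g078550.4) had 2.66, with 74.9 CPM in +N shoots and 705 CPM in +N roots.

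In the leaf lists, stomagen (Solyc08g066610.3) had −2.44, with 31.3 CPM in +N shoots and 0.173 CPM in +N roots, and LHCB3 (Solyc12g011450.2) had 2.23, with 798 CPM in +N shoots and 4.29 CPM in +N roots. The germin-like gene Solyc07g041720.1 had 3.82, a fitted value that depends on the count added by the fit, since it had no read in −N roots and 0.106 CPM in +N roots, with 2509 CPM in +N shoots.

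In the root lists, an extensin (Solyc01g005850.2) had 3.15, with 0.858 CPM in +N shoots and 50.2 CPM in +N roots, and the expansin EXPA7 (Solyc08g007780.3) had 2.69, with 0.162 CPM in +N shoots and 5.57 CPM in +N roots. A Casparian strip-like gene (Solyc10g076300.2) had −2.19, with 11.6 CPM in +N shoots and 7.68 CPM in +N roots. The next genes, from the iron and cytokinin lists, were both called higher in −N shoots. The ferric-chelate reductase FRO Solyc01g094910.3 had 2.71, with 3.72 CPM in +N shoots and 1.65 CPM in +N roots. The cytokinin oxidase CKX Solyc01g088160.4 had 2.06, with 8.69 CPM in +N shoots and 10.1 CPM in +N roots. Replicate outliers were not tested in groups of 3.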

How the results depend on the processing

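The count of 8331 genes depended on the fold threshold, with 5066 genes at a 4-fold minimum (2548 higher in shoots, 2518 higher in roots) and 15046 with no fold minimum, and stayed within 1.5 times under the other alternatives run. It was 8624 with DESeq2 and 7858 with 1 CPM in 3 libraries, and leaving out single replicates gave 8370 to 8473 (4332 to 4388 higher in shoots, 3982 to 4133 higher in roots). In the alternatives whose genes were compared, 94.2% to 99.7% of the called genes were called the same way and 0 the opposite way. The median log2 difference moved to −0.0176 with DESeq2, −0.0183 with its size factors, −0.0762 with total-count scaling and 0.0126 in the fit of all 12 libraries, and lay between −0.0090 and 0.0042 without single replicates. The interaction count of 3200 was 3302 with DESeq2 and 3021 to 3282 without single replicates. With DESeq2 for the +N plants, an alternative chosen after seeing the data, 10162 genes were called. Counts of genes read in 1 organ, also recomputed after seeing the data, were 219 to 338 for shoots and 357 to 571 for roots without single replicates. Correlations between shoot and root libraries of the same number were 0.046, −0.0083 and 0.046, under the 0.1 set for treating samples as paired. With 3 libraries per organ this cannot show whether same-numbered libraries share plants. A fit with the replicate block called 8275 genes in −N plants (4296 higher in shoots, 3979 higher in roots). The block also gave 3128 interactions and, added after seeing the data, 9725 genes in +N plants. Of 152 named genes tested, 148 to 152 kept direction and side of the threshold. Apart from AMT1, EXPA7 and LKT1, given above, a ribosomal protein (Solyc06g007670.4, −1.01 under total-count scaling) and a plastid locus (Solyc00g500065.1, 1.14 under the block, 1.11 in the fit of all libraries and 1.43 without root replicate 3) became called, and Solyc10g079600.2 and Solyc01g094700.4 changed sign near 0 without being called. The cause of these shifts was not tested. Depth limits genes under about 0.05 CPM, for which only bounds can be given.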

Other observations

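Genes of 6 further groups, chosen by keywords in their descriptions after values had been seen, are given as a description. A group of fermentation and sucrose cleavage genes, which also holds a hemoglobin, was higher in −N roots in 7 of 8 cases (median log2 −5.01). Over all genes tested, 18.1% were higher in roots. The organ difference was called different between −N and +N plants for 8 of 8, against 14.2% of all genes tested. That difference, −N minus +N, was −2.39 in log2 for the hemoglobin and positive for the others. Lactate dehydrogenase (Solyc08g078850.3) had 4.86, 3.58 and 5.55 CPM in −N shoots and 58.9, 77.5 and 95.4 CPM in −N roots (log2 −4.05). The hemoglobin counted in that group (Solyc07g008240.3) is of a family known from plants short of oxygen. It had 1.27, 1.13 and 2.35 CPM in −N shoots and 410, 456 and 462 CPM in −N roots (log2 −8.12). A LBD41-like gene (Solyc02g085910.4) is of another group, the LOB domain genes, of which 3 of 10 tested were higher in −N shoots and 5 in −N roots. It had 0.202, 0.282 and 0.423 CPM in −N shoots and 92.5, 130 and 116 CPM in −N roots, a 363-fold difference.

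Phenylpropanoid and flavonoid enzymes were divided, with 5 of 13 tested higher in −N shoots and 6 higher in −N roots. Chalcone synthase, the entry to flavonoids, had 370, 327 and 280 CPM in −N shoots and 0.827, 0.765 and 0.211 CPM in −N roots for CHS2 (Solyc05g053550.3), a 534-fold difference, and CHS1 (Solyc09g091510.3) differed 410-fold. R2R3MYB 75 (Solyc10g086250.2), of the MYB family that in plants includes flavonoid regulators, had 50.6, 43.1 and 51.0 CPM in −N shoots and 0.992, 0.287 and 0.581 CPM in −N roots (a 78.9-fold difference). A phenylalanine ammonia-lyase (Solyc09g007910.4), at the entry to the whole pathway, had 32.1, 31.9 and 35.5 CPM in −N shoots and 265, 236 and 266 CPM in −N roots (log2 −2.94). Cinnamoyl-CoA reductase (CCR2, Solyc03g116910.3), which leads to lignin, had 6.83, 6.64 and 9.54 CPM in −N shoots and 173, 136 and 129 CPM in −N roots, with means of 5.91 CPM in +N shoots and 9.37 CPM in +N roots. Of 17 WRKY factors tested, 2 were higher in −N shoots and 9 in −N roots, of 25 MYB factors 6 and 13, of 10 LOB domain genes 3 and 5, and of 7 SWEET sugar transporters 3 and 2. Over all genes tested the shares were 19.6% higher in shoots and 18.1% higher in roots.

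The 45 genes called in opposite directions in −N and +N plants held 25 that were higher in −N shoots. BT1 (Solyc03g111710.3), a BTB domain protein, had 39.5, 44.3 and 40.3 CPM in −N shoots and 9.37, 7.89 and 8.87 CPM in −N roots, with means of 85.7 CPM in +N shoots and 532 CPM in +N roots. An enolase (Solyc10g085550.3), of glycolysis, had 30.6, 31.2 and 32.8 CPM in −N shoots and 73.4, 75.04 and 67.1 CPM in −N roots, with means of 172 CPM in +N shoots and 75.5 CPM in +N roots.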
